A study of Mus musculus with 19 samples.

Results

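The CCN genes Ccn1 to Ccn6 encode the CCN matricellular proteins, secreted proteins that sit in the extracellular matrix and act on cells rather than bear load. The family was chosen with earlier results of these data known. Within it, every probe whose accession maps to Ccn1, Ccn2, Ccn3, Ccn4, Ccn5 or Ccn6 was taken, whatever its measured values. This gave 7 probes for 6 genes, out of 20660 genes with a probe on the array, and all 6 were among the 19717 genes tested.

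CCN proteins bind integrins, heparan sulfate proteoglycans and growth factors, and are built from modules related to IGF-binding proteins, von Willebrand factor type C repeats and thrombospondin repeats, with a C-terminal cystine-knot module that CCN5 lacks. CCN1 (formerly CYR61) and CCN2 (formerly CTGF) are rapidly induced by serum and by the mechanosensitive YAP/TAZ-TEAD pathway, and CCN2 is a mediator of TGF-beta action in fibrosis. CCN3 (NOV) often opposes CCN2, CCN4 and CCN5 (WISP1 and WISP2) were found as Wnt1-induced genes, and CCN6 is WISP3.

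The samples were fibroblast cultures from 7 organs of adult mice: gonad, heart, liver, lung and tail with 3 samples each, and kidney and skin with 2 each. All came from mice aged 8 to 10 weeks whose tissue was cut into pieces of 2 to 3 mm, digested for 40 min at 37 °C with either trypsin (0.05%) or collagenase (0.5 mg/mL), and grown for 5 days with 10% serum. Strain, sex and the enzyme used for each organ are not given in the sources used here, and no sample carried a genetic change or drug treatment according to the labels. RNA from each culture (0.1 µg) was labelled with Cy3 and hybridised to a 1-colour mouse array, and 18 of the 19 samples have scanner output, the exception being lung replicate 2. Whether the replicates of an organ were different animals is not stated in the labels, so p-values measure only the spread between these samples, which may be technical.

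On 5 arrays the negative control spots were brighter than the range set by the scanner software: gonad 3, heart 1, kidney 1, kidney 2 and tail 2. Their negative control signal was 44.6 to 180, against 31.8 to 35.6 scanner units on the other 13, and 84.9 to 96.6% of probes were marked well above background, against 51.2 to 77.2%. The 75th percentile of log2 signal, to which each array was scaled, was 11.18 on heart 1, 12.05 on kidney 1 and 11.15 on kidney 2, against 8.86 to 9.45 on the other 15 arrays. This scaling therefore lowers every bright probe on those 3 arrays. No kidney array lies outside the 5, so organ and array background cannot be told apart for kidney. Kidney results of the CCN genes are therefore given below with the unscaled signals and with quantile normalization, which gives every array the same distribution of values. For other genes named for a kidney difference, the quantile-normalized difference is given without unscaled signals.

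The fibroblast label was checked against 10 markers, all of which were well above background on every array of gonad, heart, liver, lung, skin and tail. In kidney 9 of 10 were, and the kidney cultures went against the label in part: on the quantile-normalized log2 scale Pdgfra was 5.18 to 7.40, against 10.70 to 12.98 elsewhere, and Lum was 2.86 to 3.06, against 5.11 to 13.76, while Col1a1 was 16.41 to 16.63. The summed signal of 8 epithelial markers was 230495 to 339760 in kidney, against 732 to 40612 elsewhere, with Krt18 at 17.20 to 17.89. In the heart cultures the summed signal of 8 smooth muscle and pericyte markers was 18490 to 23347, against 86159 to 427992 elsewhere, and that of 7 chondrocyte markers was 14687 to 18535, against 1124 to 6460. Mesothelial markers (6 genes) summed to 138 to 153 in skin, 170 to 217 in tail and 327 to 803 in heart, against 9183 to 49143 in the other 4 organs. Endothelial sums were 9010 to 24610 in liver and 6463 to 15833 in gonad, against 1557 to 4495 in the other organs. Macrophage sums were 4796 to 21197 in liver, against 2438 to 9450 in the other organs. These are bulk samples, in which fewer cells of a type and less RNA per cell cannot be told apart.

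Upstream sequence was matched in RefSeq's table for Ccn1 and Ccn6, and both windows are shown because these were the members with an entry. Each is the 250 bases before the start of the gene on the minus strand of GRCm38.p6, at chr3:145649986-145650235 for Ccn1 and chr10:39163795-39164044 for Ccn6, printed in the direction of transcription. Capitals mark the TEAD core motif CATTCC and the TATA motif TATAAA.
Ccn1: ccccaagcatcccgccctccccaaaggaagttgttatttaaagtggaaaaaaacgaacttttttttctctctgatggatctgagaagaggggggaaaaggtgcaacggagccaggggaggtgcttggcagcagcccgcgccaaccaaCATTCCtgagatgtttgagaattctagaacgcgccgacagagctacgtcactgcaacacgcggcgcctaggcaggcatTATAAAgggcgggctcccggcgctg
Ccn6: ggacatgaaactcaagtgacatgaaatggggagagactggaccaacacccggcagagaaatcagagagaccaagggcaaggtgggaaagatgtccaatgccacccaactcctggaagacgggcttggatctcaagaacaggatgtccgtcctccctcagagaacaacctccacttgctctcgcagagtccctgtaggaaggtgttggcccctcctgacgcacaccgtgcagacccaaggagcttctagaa
Both windows were searched on both strands for the TEAD motif, the SMAD box CAGAC, the TCF/LEF motif CTTTGAT and the SRF CArG box. The TATA motif was added after the sequences were seen, and the matches found do not overlap. In Ccn1, CATTCC lies 103 to 98 bases and TATAAA 25 to 20 bases before the start. Ccn6 holds CAGAC alone, 22 to 18 bases before the start. Among 32851 mouse promoter windows of the same length, 12.6% hold CATTCC, 12.4% TATAAA, 42.2% CAGAC, 3.21% CTTTGAT and 1.47% the CArG box. Both windows are 54.8% G or C, against a median of 52.4%, and hold 15 (Ccn1) and 6 (Ccn6) CpG dinucleotides, against a median of 6.

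The question put to the arrays was how the level of each CCN gene differs between fibroblasts of different organs. Ccn5 was far lower in kidney than in the other 6 organs. Ccn4 was lower in heart, and Ccn3 higher in tail, than the mean of the other organs. Ccn3 had its lowest means in gonad and skin. With all arrays these 2 organs did not differ past the threshold (limma adjusted p = 0.80, and 0.84 with quantile normalization). Ccn1 and Ccn2 were bright everywhere and spanned 2.39-fold and 1.66-fold in unscaled signal over the 18 arrays. Ccn6 was brightest on the 5 high-background arrays, at 320 to 6840 scanner units, against 3.21 to 197 on the other 13. In a moderated F test over the 7 organ means (limma, Benjamini-Hochberg over all genes, adjusted p under 0.05), 4 of 6 members passed, namely Ccn1 (adjusted p = 0.026), Ccn3 (0.0036), Ccn4 (0.0029) and Ccn5 (4.3e-05), whereas Ccn2 (0.064) and Ccn6 (0.093) did not. Of all genes tested 38.7% passed. With quantile normalization Ccn3 (1.9e-04), Ccn4 (2.2e-05) and Ccn5 (4.8e-07) passed and Ccn1 (0.078) did not. With the kidney arrays left out, a choice made after seeing the data, 2 of 6 members passed, Ccn3 (0.0066) and Ccn4 (0.013), against 8.70% of all genes, and Ccn5 was at 0.72.

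**Figure D1:**
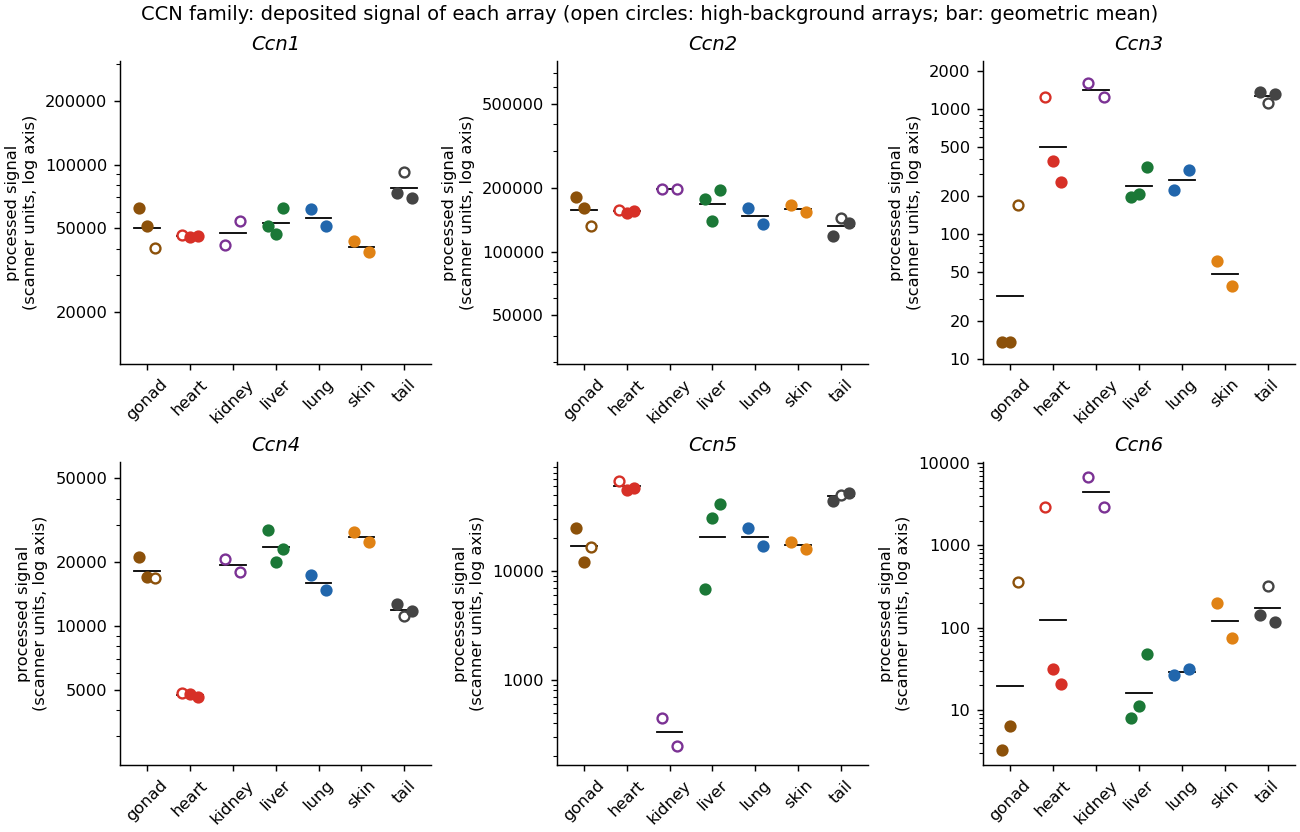
Background-subtracted signal of the 6 CCN genes in scanner units (log axis), 1 point per array, by organ. Open circles are the 5 high-background arrays and bars are geometric means. Ccn5 falls to 248 and 444 in kidney, Ccn4 to 4616 to 4795 in heart, and Ccn6 is brightest on 3 open circles.

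Ccn1, the immediate early member that binds integrins and promotes adhesion and migration, was read by probe A_51_P252859 and was well above background on all 18 arrays. Its unscaled signal was 73799, 91853 and 69748 in tail replicates 1, 2 and 3. It was 62450, 51024 and 40207 in gonad, 46288, 45700 and 46155 in heart, and 51187, 46968 and 62160 in liver. Lung gave 61818 and 51040, skin 43313 and 38426, and kidney 41846 and 54344. All 3 tail arrays lay above the other 15, the lowest tail array being 1.12 times the highest other one, and kidney lay within the range of the rest. On the scale relative to the 75th percentile, the tail mean was the highest (6.97 ± 0.06, SD, n = 3) and the kidney mean the lowest (3.94 ± 0.90, n = 2). Kidney was lower than the mean of the other 6 organs by a log2 difference of -2.51 ± 0.49 (SE, limma adjusted p = 0.0015). With quantile normalization that difference was -0.29 (adjusted p = 0.21), and without kidney replicate 1 it was -1.87 (adjusted p = 0.059). The tail difference with quantile normalization was 0.66 (adjusted p = 0.016), below the size of 1 required for a call. On the 75th-percentile scale all 6 of the 21 organ pairs that passed for Ccn1 had kidney as one side, and no pair of the other 6 organs passed under either scaling.

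Ccn2, the profibrotic member induced by TGF-beta and YAP/TAZ, was the member with the narrowest range, 118734 to 197329 over the 18 arrays with a median of 156196 (probe A_51_P157042). Unscaled signals were 197329 and 196990 in kidney, above those of every other array. Those of tail were 118734, 144653 and 136169, with the other organs between 131436 and 194500. Kidney had the lowest mean level after scaling to the 75th percentile (5.99 ± 0.63, SD, n = 2) and differed from the mean of the other organs by -1.99 ± 0.47 (SE, limma adjusted p = 0.0034), but with quantile normalization the sign was opposite, 0.32 (adjusted p = 0.11). Without kidney replicate 1 the 75th-percentile difference was -1.54 (adjusted p = 0.090). All 5 organ pairs that passed for Ccn2 included kidney, and none passed with quantile normalization. Across arrays the scaled levels of Ccn1 and Ccn2 had r = 0.91 over 18 arrays and -0.10 over the 13 arrays without high background, points that share their array and its scaling, and both levels fell as the negative control signal rose (r = -0.94 and -0.96 over 18).

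Ccn4, formerly WISP1, is a Wnt target secreted by mesenchymal cells. It gave 4795, 4756 and 4616 scanner units in heart replicates 1, 2 and 3. In tail it gave 12619, 11118 and 11820, and in lung 17398 and 14742. In gonad it gave 21160, 17099 and 16834, in kidney 20816 and 17942, in liver 28335, 20054 and 23127, and in skin 27784 and 24977. Every heart array lay below every other array, the highest heart array by 2.32-fold below the lowest other one, and heart 1, a high-background array, lay with heart 2 and 3. The mean scaled level was 2.54 ± 1.29 in heart (SD, n = 3) against 4.26 ± 0.23 in tail and 5.70 ± 0.06 in skin (n = 2), the highest. Heart was lower than the mean of the other organs by a log2 difference of -2.08 ± 0.38 (SE, limma adjusted p = 0.0054) on the 75th-percentile scale and -1.97 ± 0.15 (adjusted p = 3.2e-06) with quantile normalization. It was -1.77 (adjusted p = 9.7e-05) on the 13 arrays without high background, and -1.44, -3.94 and -0.87 within slides 1, 2 and 3. The fall in heart was called under all 31 alternatives tried.

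Both Ccn4 probes gave this pattern. The other probe, A_55_P2132651, read 2290 to 3110 in heart and 4672 to 18321 elsewhere, and the 2 probes had r = 0.97 over 18 arrays while their log2 signals differed by 0.50 to 1.85. Skin stood at the other end. Its Ccn4 level was above the mean of the other organs by 1.05 (adjusted p = 0.0082) with quantile normalization and by 1.13 (adjusted p = 0.0011) on the 13 arrays, while on the 75th-percentile scale with all arrays the difference did not pass. The kidney difference of -1.96 (adjusted p = 0.0031) on that scale was 0.17 (adjusted p = 0.44) with quantile normalization. Of the 9 organ pairs that passed for Ccn4, 5 included kidney and the other 4 set heart against gonad, liver, lung or skin. With quantile normalization 7 pairs passed, 6 with heart as one side and the other being skin over tail (1.27, adjusted p = 0.0036). Marker genes of other cell types moved with the low Ccn4 of heart. Of the 8 smooth muscle and pericyte markers 5 had their lowest mean in heart (Actg2, Cnn1, Cspg4, Kcnj8 and Myh11), while Mcam had its highest there. Of the 7 chondrocyte markers 3 had their highest mean in heart, Col2a1 (13.22, quantile-normalized log2), Sox9 (11.94) and Cnmd, whereas Acan, Col9a1 and Col11a2 were highest in kidney and Hapln1 in tail. Their part in the Ccn4 result was not tested.

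Ccn5, formerly WISP2, is a growth-restraining member known from stromal and smooth muscle cells. It gave 444 and 248 scanner units in kidney replicates 1 and 2. In heart it gave 66540, 55102 and 58275, in tail 44295, 50101 and 51785, and in liver 6843, 30704 and 41268. In gonad it gave 24786, 12154 and 16603, in lung 24717 and 16972, and in skin 18629 and 15767. The brighter kidney array was 15.4-fold below the dimmest other array, liver 1. The other 3 high-background arrays read 16603 (gonad 3), 66540 (heart 1) and 50101 (tail 2), within or above the range of their organs' other arrays. Their negative control signals were 44.6, 131 and 48.3, against 180 and 108 on kidney 1 and 2. The part of array background in the Ccn5 difference was not tested. The kidney probe exceeded 11.1% and 21.7% of the probes on its arrays, against at least 91.2% on every other array. It was marked well above background on both kidney arrays. Its raw median intensities there, 607 and 350, lay below the medians of all probes, 1985 and 833. The kidney differences of Ccn5 therefore have no exact size.

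Kidney differed from the mean of the other 6 organs in Ccn5 by a log2 difference of -8.68 ± 0.60 (SE, limma adjusted p = 1.6e-05) on the 75th-percentile scale, with a kidney mean of -3.23 ± 0.04 (SD, n = 2), and all 6 organ pairs with kidney passed. It was -10.97 with quantile normalization, -8.11 with normexp background correction and quantile normalization, and -8.59 to -8.82 when each array in turn was left out. Within slides 1 and 3, the slides that hold kidney, it was -8.58 and -9.22. In the same 2 kidney cultures 7 of the 8 epithelial markers had their highest mean, the exception being Krt14, which was 7.33 in kidney and 11.80 in skin (quantile-normalized log2). Of the 10 fibroblast markers 8 had their lowest mean in kidney, by small margins for some (Col1a2 18.03 against 18.12 in gonad), while Col1a1 had its highest there (16.52) and Vim (16.51) lay within the range of the other organs. Their part in the Ccn5 difference was not tested.

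Heart and tail were called higher than the mean of the other organs for Ccn5, by 2.32 ± 0.51 (limma adjusted p = 0.017) and 2.42 ± 0.51 (adjusted p = 0.0091). That mean includes the very low kidney. With the kidney arrays left out the differences were 0.89 (adjusted p = 0.41) in heart and 1.00 (adjusted p = 0.46) in tail, and with quantile normalization as well 1.48 (adjusted p = 0.054) and 1.01 (adjusted p = 0.17). No organ pair without kidney passed for Ccn5 under either scaling. Heart also lost its call without heart replicate 2 (adjusted p = 0.14) or heart replicate 3 (0.15), and tail without tail replicate 1 (0.053) or tail replicate 3 (0.072). The unscaled signals of heart and tail, 44295 to 66540, all lay above those of the other organs, 248 to 41268.

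**Figure D2:**
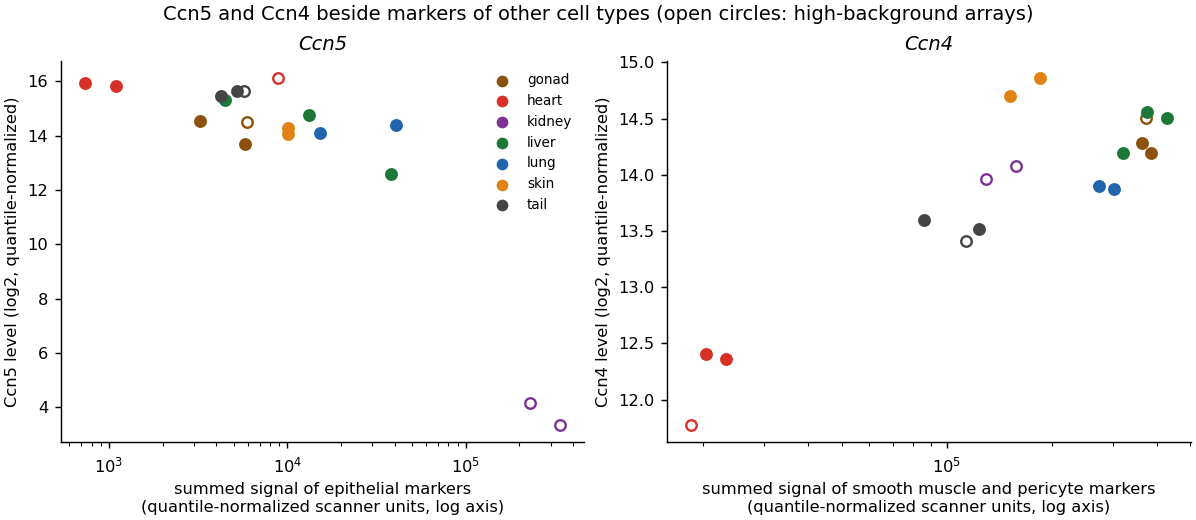
Level of Ccn5 against the summed signal of epithelial markers (left) and of Ccn4 against that of smooth muscle and pericyte markers (right), 1 point per array, quantile-normalized, with log horizontal axes. Open circles are high-background arrays. The 2 kidney arrays stand alone in Ccn5 at epithelial sums of 230495 to 339760, and the 3 heart arrays in Ccn4 at sums of 18490 to 23347.

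Ccn3, formerly NOV, is a growth-inhibitory member that binds Notch and integrins. Its mean level on the 75th-percentile scale was highest in tail (1.03 ± 0.31, SD, n = 3) and lowest in gonad (-4.13 ± 2.03, n = 3) and skin (-3.39 ± 0.30, n = 2). Its signal was 1376, 1116 and 1319 in tail, and 13.8, 13.7 and 172 in gonad, where replicates 1 and 2 were not well above background and replicate 3 is a high-background array. Skin gave 60.6 and 38.5, marked well above background, with raw median intensities of 110 and 88 against array medians of 130.5 and 98. Lung gave 225 and 324, liver 199, 209 and 343, and heart 1257, 381 and 261, of which the first is a high-background array. Kidney gave 1613 and 1238, both on high-background arrays. On the 13 other arrays the dimmer of the 2 tail arrays lay 3.46-fold above the next array in unscaled signal. Both gonad arrays lay 2.79-fold or more below every other in that unit. With quantile normalization gonad 1 and 2 (5.88 and 5.94, log2) lay above both skin arrays (5.68 and 5.69). Tail thus stood apart from the rest in both units, whereas gonad did so in unscaled signal and not with quantile normalization. On the 75th-percentile scale gonad 1 and 2 (-5.35 and -5.25) also lay below both skin arrays (-3.18 and -3.60). Since neither gonad array was well above background, the gap below the other arrays has no exact size.

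Tail was higher than the mean of the other organs in Ccn3 by a log2 difference of 2.99 ± 0.57 (SE, limma adjusted p = 0.0048), by 3.14 ± 0.39 (adjusted p = 1.5e-04) with quantile normalization and by 3.55 (adjusted p = 1.2e-04) on the 13 arrays, where it was 2.40 with normexp and quantile normalization. Within slides 1, 2 and 3 it was 3.32, 2.90 and 2.66. The rise was called under all 31 alternatives, including both without the kidney arrays. Gonad was lower by -3.02 ± 0.57 (adjusted p = 0.0088), by -2.00 ± 0.39 (adjusted p = 0.0082) with quantile normalization and by -4.26 on the 13 arrays, where it was -1.74 (adjusted p = 7.1e-05) with normexp and quantile normalization. It lost its call without gonad replicate 1 or replicate 2 (both adjusted p = 0.11), which leaves the high-background array and 1 other. Skin was lower by -2.43 (adjusted p = 0.014) with quantile normalization and by -1.96 (adjusted p = 0.0021) on the 13 arrays, a difference that did not pass on the 75th-percentile scale with all arrays. In kidney the sign depended on the scaling, with 0.47 on the 75th-percentile scale and -1.24 (adjusted p = 0.036) with quantile normalization. Of the 21 organ pairs 5 passed on the 75th-percentile scale and 14 with quantile normalization, 10 of these without kidney. Tail over gonad (5.16) and tail over skin (4.42) were the widest, and with quantile normalization they were 4.41 and 4.78, in the opposite order. On the 75th-percentile scale tail passed over gonad, skin and kidney alone. Heart (-1.73, limma adjusted p = 0.26), lung (-2.14, 0.29) and liver (-2.34, 0.093) did not differ from tail past the threshold. With quantile normalization tail over lung (1.86, adjusted p = 0.098) did not pass. Since the probe was well above background on 1 of 3 gonad arrays, the gonad differences of Ccn3 have no exact size. The same holds for the tail difference from a mean that includes gonad.

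Ccn6, the member mutated in a human progressive arthropathy, was well above background on 12 of 18 arrays with probe A_55_P1960526: all 5 high-background arrays and 7 of the other 13. On the high-background arrays it read 358 (gonad 3), 2888 (heart 1), 6840 and 2907 (kidney) and 320 (tail 2). On the other arrays it read 3.21 and 6.27 in gonad, 31.1 and 20.7 in heart, and 7.95, 11.04 and 48.3 in liver. Lung gave 26.5 and 31.7, skin 197 and 73.7, and tail 143 and 117. In heart and gonad the high-background replicate was brighter than the other replicates by far more than those differed between themselves. Its log2 level had r = 0.73 with the log2 negative control signal over 18 arrays, and 0.87 with quantile normalization. Among the 13 arrays without high background Ccn6 still ranged 61.6-fold. Kidney was called higher by 4.03 ± 1.41 (SE, limma adjusted p = 0.021) and by 4.21 (adjusted p = 0.0055) with quantile normalization. That call was lost without either kidney array (adjusted p = 0.14 and 0.087), and the kidney signal of Ccn6 cannot be told apart from the background of those arrays. On the 13 arrays gonad was lower (-3.31) and skin and tail higher (2.51 and 2.39), where 16.9% of all genes were lower in gonad, 20.3% higher in skin and 16.0% higher in tail. With normexp and quantile normalization these were -0.71, 0.64 and 0.62, below the size of 1 required for a call, and neither gonad array was well above background.

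**Figure D3:**
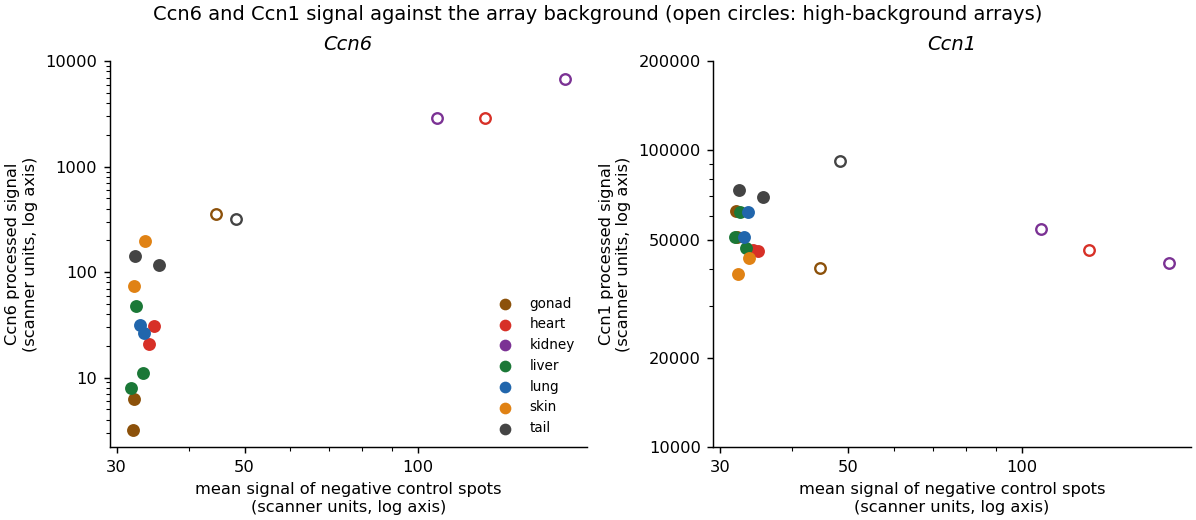
Signal of Ccn6 (left) and Ccn1 (right) against the mean signal of the negative control spots, all axes in scanner units on a log scale, 1 point per array. Open circles are the 5 high-background arrays. Ccn6 is 320 to 6840 on the open circles and at most 197 on the others, while Ccn1 lies between 38426 and 91853 throughout.

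By organ, on the 75th-percentile scale, with a call needing adjusted p under 0.05 and a log2 difference of at least 1 from the mean of the other organs, 1 of 6 members was called in gonad, where 3.22% of all genes were. In heart 2 of 6 were called (4.03% of all genes), and in tail 2 of 6 (7.22%). In kidney 5 of 6 were called, against 77.2% of all genes, so that this count is near the background. No member was called in liver, lung or skin, where 1.77%, 0.675% and 1.72% of all genes were called. With quantile normalization 1 member was called in gonad (3.82% of all genes), 2 in heart (4.85%), 2 in tail (8.27%), 3 in kidney (48.3%) and 2 in skin, Ccn3 and Ccn4 (2.20%), with none in liver (2.36%) or lung (1.04%). Over all 21 pairs of organs, 34 member and pair combinations passed, 27 with kidney as one side and 7 without. With quantile normalization 30 passed, 14 with kidney and 16 without. Among all genes 55.0% of such comparisons passed in pairs with kidney and 3.06% in pairs without it, and 39.3% and 3.93% with quantile normalization. The median difference over all genes was -0.21 in kidney, 0.36 in skin and 0.32 in tail, and -0.26, 0.09 and 0.06 with quantile normalization.

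**Figure D4:**
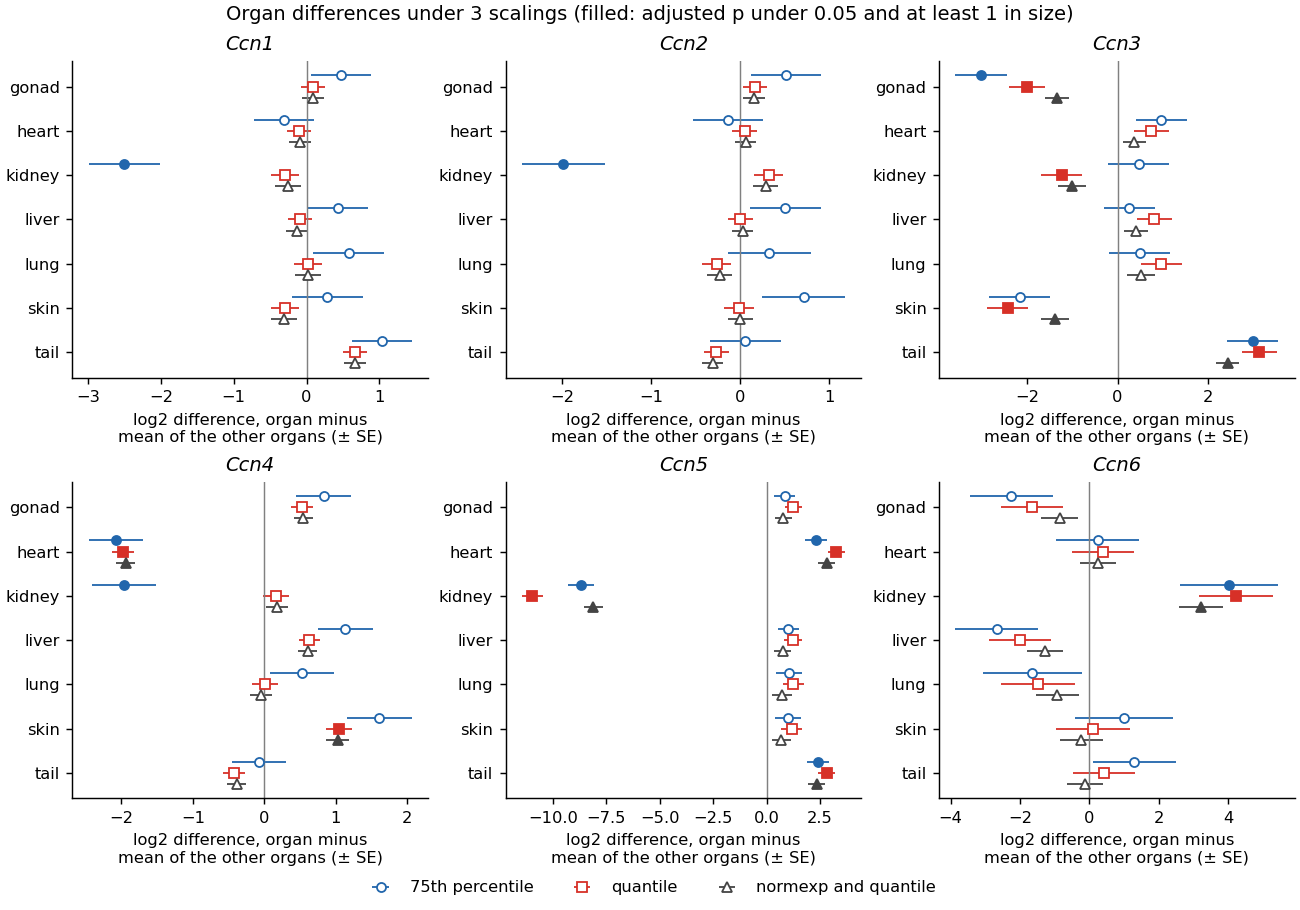
Log2 difference of each organ from the mean of the other 6 organs for the 6 CCN genes, with SE, under scaling to the 75th percentile (circles), quantile normalization (squares) and normexp correction with quantile normalization (triangles). Filled symbols passed adjusted p under 0.05 with a size of at least 1. Ccn4 in heart, Ccn5 in kidney and Ccn3 in tail are filled under all 3, whereas the kidney differences of Ccn1, Ccn2 and Ccn4 are filled under the first alone.

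The order of the organs could be read only in part. For Ccn5 on the 75th-percentile scale the order of the means was tail, heart, lung, liver, skin, gonad and kidney, and only gonad and kidney, of the 6 neighbouring pairs, differed past the threshold. With quantile normalization it was heart, tail, gonad, lung, liver, skin and kidney, and skin over kidney passed. For Ccn4 it was skin, liver, gonad, lung, tail, kidney and heart, with tail over kidney as the neighbouring pair that passed. With quantile normalization kidney moved above lung and tail, the order being skin, liver, gonad, kidney, lung, tail and heart, and tail over heart was the neighbouring pair that passed (1.33, adjusted p = 8.2e-04). For Ccn3 it was tail, heart, lung, kidney, liver, skin and gonad, and no neighbouring pair passed. With quantile normalization the Ccn3 order was tail, lung, liver, heart, kidney, gonad and skin, and heart over kidney passed (1.70, adjusted p = 0.039).

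**Figure D5:**
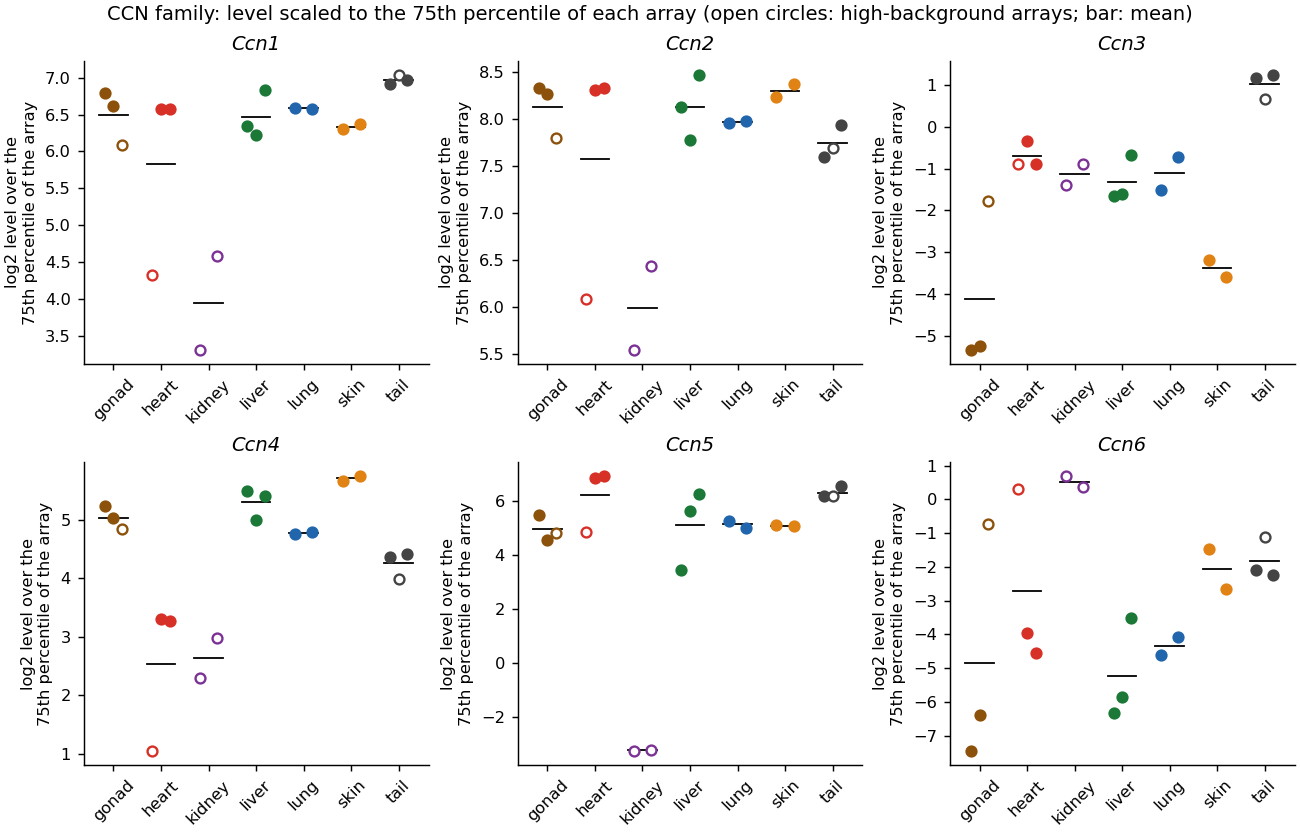
Log2 level of the 6 CCN genes relative to the 75th percentile of each array, by organ, 1 point per array with bars for the means. Open circles are high-background arrays. The open circles of heart and kidney lie below the filled ones for Ccn1 and Ccn2, whose kidney means are 3.94 and 5.99.

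Genes upstream, downstream and beside the CCN proteins were followed in lists written with earlier results of these data known. Of 18 receptors and binding partners 10 passed the F test over organs, of 17 TGF-beta genes 11, of 12 Wnt response genes 5, of 21 YAP/TAZ and SRF regulators 12, of 19 other YAP/TAZ targets 16, of 14 immediate early genes 12 and of 16 other matricellular genes 15. These counts were 7, 12, 4, 12, 15, 12 and 15 with quantile normalization, and all are to be read against 38.7% and 40.4% of all genes.

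Among the binding partners, Itga5, the fibronectin receptor subunit, was lower in heart by -2.14 ± 0.39 (SE, limma adjusted p = 0.0053), and Itga6, a laminin receptor subunit and a receptor for CCN1, was higher in liver by 1.77 (adjusted p = 0.035; 1.21 and 0.082 with quantile normalization). Dcn, which encodes the proteoglycan decorin, was lower in kidney by -5.23 (adjusted p = 2.8e-04), and by -4.28 with quantile normalization. Over the 18 receptors and partners 2 were called in heart (4.03% of all genes), 1 in liver (1.77%), 1 in tail (7.22%) and none in gonad, lung or skin. In kidney 13 were called, a share below the 77.2% of all genes called there, with a kidney median of -1.28 that was 0.44 with quantile normalization, against -0.21 and -0.26 over all genes.

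Of the TGF-beta genes, Ltbp2, a matrix protein of the latent TGF-beta binding family, was lower in heart by -2.69 ± 0.38 (limma adjusted p = 8.0e-04), and Tgfbr3, the co-receptor betaglycan, was higher in tail by 2.56 ± 0.35 (adjusted p = 4.4e-04). Ltbp1 was highest in lung, by 1.86 (adjusted p = 0.057). Among the Wnt response genes, Lgr5, an R-spondin receptor, was higher in tail (adjusted p = 9.6e-05). It was not well above background on any gonad array, so that tail was at least 108-fold above gonad, and was so on 1 array each of heart, liver and lung. Nkd1, a feedback inhibitor of Wnt signalling, was lower in kidney by -2.95 (adjusted p = 4.6e-04), and by -4.85 with quantile normalization. Sp5, a Wnt-induced transcription factor, had a liver difference of 2.98 (adjusted p = 0.11), which did not pass, and one of 3.34 (adjusted p = 0.0022) with quantile normalization, which did; its probe was well above background on 1 of 3 heart and 1 of 2 lung arrays, so neither difference has an exact size. Heart, where Ccn4 was low, held 1 called Wnt response gene of 12, which was lower, where 4.03% of all genes were called, and a list median of -0.62 against -0.09 over all genes.

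Among the YAP/TAZ and SRF regulators the 3 with the smallest F test p-values were all lowest in kidney: Mrtfa, the serum-responsive SRF coactivator, at -1.97 (limma adjusted p = 0.0015) but 0.17 with quantile normalization; Tead3, a TEAD factor, at -1.99 and -4.03; and Wwtr1, which encodes TAZ, at -2.21 and -3.31. Of the 21 regulators 17 were called in kidney, 16 of them lower, against 77.2% of all genes called and 40.8% lower there. With quantile normalization 12 were called, all lower, against 48.3% of all genes called. Ankrd1, a YAP/TAZ target, was lower in tail by -4.56 ± 0.52 (adjusted p = 9.9e-05), the organ where Ccn1 had its highest signal. Foxf2 and Ccdc80 were lower in kidney by -2.37 (adjusted p = 0.0011) and -3.50 (adjusted p = 4.7e-04). With quantile normalization their differences were -4.53 and -1.39. In tail 5 of the 19 targets were called, 2 higher and 3 lower, against 7.22% of all genes.

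Immediate early genes, the class to which Ccn1 belongs, were called in tail for 4 of 14, all higher, against 4.69% of all genes higher in tail, with a list median of 1.05 against 0.32. In gonad 3 were called, all higher, against 2.32%. With quantile normalization these counts were 4 and 3 again. On the 13 arrays without high background 1 of 14 was higher in tail, where 16.0% of all genes were, and 3 were higher in gonad, where 4.04% were. Fosb, a subunit of AP-1, was higher in gonad by 2.61 ± 0.28 (limma adjusted p = 1.6e-04). Fos and Nr4a1 were lower in kidney by -3.53 (adjusted p = 3.9e-04) and -3.98 (adjusted p = 3.0e-04). With quantile normalization their differences were -5.50 and -2.13. Of the 14 genes 11 were called in kidney, 10 of them lower, against 77.2% of all genes called and 40.8% lower there. With quantile normalization 9 were called, all lower, against 48.3% of all genes called.

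Other matricellular genes moved in tail beside Ccn3. Thbs4, a thrombospondin of tendon and muscle, was higher there (limma adjusted p = 5.3e-06). Its probe was not well above background on any gonad or heart array, and tail was at least 6873-fold above gonad and at least 4417-fold above heart. These bounds set the mean tail level against, on each gonad or heart array, the higher of the dim probe's own level and the lowest level among probes well above background. They hold on the 75th-percentile scale alone. That scale subtracts 11.18 from heart 1 and 8.91 from heart 2 and 3, so the heart bound depends on it. Comp, the cartilage and tendon thrombospondin, was higher in tail by 7.59 ± 0.58 (adjusted p = 6.0e-06), and Smoc2, a SPARC-related calcium-binding protein, by 4.75 ± 0.41 (adjusted p = 1.4e-05). In tail 5 of the 16 were called, 4 higher and 1 lower, against 7.22% of all genes, and 6 in skin, all higher, against 0.928% of all genes higher there. In gonad 6 were called, 1 higher and 5 lower, against 3.22% of all genes. In kidney 12 were called, all lower, against 40.8% of all genes lower there, and 10 with quantile normalization, 9 of them lower.

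Some of these list counts differed on the 13 arrays without high background, where 16.9% of all genes were called lower and 4.04% higher in gonad, and 8.33% were called in heart, 5.59% in liver, 23.8% in skin and 20.9% in tail. Of the receptors and partners 3 were called in gonad, 1 higher and 2 lower, 5 in heart, 3 in liver, 2 in skin and 4 in tail. Of the Wnt response genes 4 were called in heart, 1 higher and 3 lower, and 5 in skin. Of the YAP/TAZ targets 8 were called in tail, 2 higher and 6 lower. Of the other matricellular genes 10 were called in gonad, 1 higher and 9 lower, 9 in skin and 6 in tail.

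The genes whose levels were most like each member were named by Pearson correlation over the 18 arrays. The candidates were 15432 genes (15431 with quantile normalization) well above background on at least 9 arrays, after predicted, clone, Rik and LOC names were left out. Arrays share their scaling and their background, and no p-value is attached. For Ccn5 they were Dclk1 (r = 0.98), Col6a1, Tspan17 and Cebpd (0.96 each), and Dclk1 led with quantile normalization too (0.99), before Gbp2, S100a4 and Islr (0.98, 0.97 and 0.97). On the 13 arrays Dclk1 kept r = 0.94 and the other three had 0.71 to 0.83. For Ccn4 they were Gadd45b, Arhgap12 and Slc4a7 (0.96 each) and Prkag2 (0.95), and with quantile normalization Hoxc4 and Lrrc4c (0.95 each), Slc16a3 and the smooth muscle marker Actg2 (0.92 each). For Ccn3 they were Slc16a9 (0.94), Igfbp4 (0.89), Dnaic2 (0.88) and Ssc5d (0.87), with Slc16a9 at 0.98 and Ssc5d at 0.94 on the 13 arrays. With quantile normalization they were Lgmn (0.92), Ssc5d (0.90), Itih5 and Six2 (0.87 each).

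The nearest genes of Ccn1 were Top3b, Gpx8, Ergic3 and Tmub2 (0.99 each), and those of Ccn2 were Ogdh, Luzp1, Vcp and Psmc1 (0.99 each), on the scale that lowers all bright probes of 3 arrays. With quantile normalization Ccn1 was nearest to Amotl2 (0.92), Gpx8 (0.90), Cited2 and Araf (0.88 each), and Ccn2 to Ogdh (0.80), Ctnnd1 (0.79), Wwc2 and Pfkp (0.78 each). Amotl2, an angiomotin family gene, is a YAP/TAZ pathway member. For Ccn6 they were Olfr830, Cytl1, Olfr481 and Cd101 (0.99 each), 2 of which are olfactory receptor genes, and Olfr345 and Olfr830 led with quantile normalization.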

How the data were processed

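Gene expression was measured in 19 samples of 7 organs on a 1-colour Agilent mouse array of 62976 spots, scanned with Agilent Feature Extraction 11.0.1.1 per the file headers. The authors deposited, for each of 18 samples, a background-subtracted, spatially detrended spot intensity not normalized between arrays, the median raw and local background intensity, and flags (another unit, 0 or 1) for spots well above background, saturated or outlying. The value table the authors deposited was checked to hold the raw median intensity of all 62976 spots on each of the 18 arrays; it served as an alternative and is the sole source for lung replicate 2.

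Symbols came from a RefSeq table matched on each probe's accession, which named 27235 of the 55681 biological probes and 20660 genes; 463 genes were left out as well above background on fewer than 2 arrays and 480 for want of a complete probe. Outlier-flagged spots were set to missing, and no CCN spot was flagged or saturated. The level is log2 of the processed intensity less the array's 75th percentile, and each gene is read by its probe of highest mean. Limma 3.58.1 (R 4.3.3) fitted 7 organ means to 18 arrays (11 residual degrees of freedom). P-values were adjusted by Benjamini-Hochberg over 19717 genes within each contrast, with a call at adjusted p under 0.05 and, except for the F test, a log2 difference of at least 1. The script was tested on simulated data. The number of arrays, 2 or 3 per organ, limits the precision.

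Alternatives were quantile normalization, normexp (offset 50) with quantile normalization, no dim filter, the mean of probes, saturated spots missing, slide as a block, replicate number as a block, the value table, variance trend with robust moderation, without the 5 high-background arrays, and each array left out. Leaving out kidney (with either scaling), normexp on 13 arrays, and likeness and lists under quantile normalization were chosen after seeing the data. The members and lists were chosen with earlier results of these data known. Genes named are all members, the 4 most alike per member, and the 3 of each list with the smallest F test p. The slides numbered 3 and there was 1 scan day. Python 3.11.15 drew the figures with matplotlib 3.10.9. Proteins and upstream sequence of Ccn2 to Ccn5 were not analysed here.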

Additional observations from a re-analysis of the deposited data

How the results depend on the processing

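Ccn4 in heart, Ccn3 in tail and Ccn5 in kidney kept their direction and their call under all alternatives that gave a value (31, 31 and 27). The number of members called in kidney fell from 5 to 3 with quantile normalization, with or without normexp. Without the high-background arrays the number of members called was 2 in gonad and 3 in skin. These counts are to be read against all genes called, which rose from 634 to 4135 in gonad and from 339 to 4701 in skin. In that setting 22 member and pair combinations passed over the 15 pairs without kidney, against 7 over the same pairs on the main scale (34 over all 21). Shares of all genes in pairs are given above for the main scale and quantile normalization with all arrays alone. The combination counts of every other setting have no such share beside them. Changes in those counts are therefore not read as results about the members. Skin had 2 called members with quantile normalization, with normexp and quantile normalization, with the value table, with the 13 arrays and normexp, and with quantile normalization without kidney, and 0 on the main scale. All genes called in skin numbered 434, 478, 456, 1142 and 600 in those settings, against 339 on the main scale. On the 13 arrays with normexp heart and tail had 1 each, where 1000 and 1356 genes were called, and 19 combinations passed over the 15 pairs without kidney. Without kidney arrays the F test passed 2 members under either scaling, where 1715 of all genes passed, or 2968 with quantile normalization. Heart and tail had 1 member each, where 877 and 1113 genes were called, or 1084 and 1270 with quantile normalization. Of the combinations over those 15 pairs 6 passed, or 16 with quantile normalization. The kidney differences that changed sign were Ccn2 (0.32 with quantile normalization, 0.29 with normexp as well), Ccn4 (0.17 and 0.18; main -1.96) and Ccn3 (-1.24 and -1.004, and -0.00083 with the value table; main 0.47). The value table reads Ccn4 from its other probe, since lung replicate 2 has no value for the first. Leaving out each array in turn gave 3 to 6 members in the F test, 0 to 2 in gonad, 1 to 3 in heart, 1 to 5 in kidney (1 without kidney replicate 1), 0 to 1 in liver and skin, 0 in lung, 1 to 2 in tail, and 13 to 46 combinations. The cause of these changes was not tested. The replicate block, with the replicate number as its levels, moved no member count by over 1.5 times (kidney Ccn5 -8.54, 31 combinations). The numbers are not shown to pair the samples: residuals of 46 same-numbered pairs had r from -0.85 to 0.78 with a median of -0.04, and 13 were over 0.1. Genes passing the F test numbered 7631 on the main scale, 4216 with the replicate block, 12123 with the value table and 2027 to 16114 when single arrays were left out. Signal over background limits Ccn6, Ccn3 in gonad and skin, Ccn5 in kidney, and Thbs4, Lgr5 and Sp5 in several organs.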

Other observations

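Lung replicate 2, held by the value table alone, had raw median intensities of 36146 for Ccn1, 128908 for Ccn2, 351 for Ccn3, 20338.5 for Ccn5 and 76 for Ccn6. In the same unit lung replicates 1 and 3 had 58767 and 47369.5 for Ccn1, 170135 and 144342 for Ccn2, 282 and 380 for Ccn3, 23700.5 and 16653 for Ccn5, and 66 and 74 for Ccn6. Lung replicate 2 was thus dimmer than both in Ccn1 and Ccn2, brighter than both in Ccn6, and between them in Ccn3 and Ccn5. Its Ccn4 reading comes from the second probe (9551, against 10879 and 7728), and the first has no value there.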
